A study of Mus musculus with 12 samples.

Results

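Macrophages are the first tissue phagocytes of the embryo, and 34 genes by which they are commonly recognised were followed here through the cells of the intra-aortic haematopoietic clusters. The 34 genes were listed by name for their known roles, with results of these data already known, and each matched 1 of the 24138 gene models in every deposited table. The clusters are small groups of cells on the wall of the embryonic aorta from which blood stem and progenitor cells emerge. RNA was sequenced from 12 samples of such cells, sorted from the aorta-gonad-mesonephros region of C57BL/6 mouse embryos as CD31+ CD117+ cells without SSEA-1. They form 4 groups of 3. Cells in G1 were mKO2+ cells of Fucci Red animals, taken at E10.5 or E11.5, stages named for days of gestation. Cells of the remaining cycle (S, G2 and M, written S/G2/M) were mAG+ cells of Fucci Green animals at the same 2 ages. Phase and reporter strain therefore coincide, and their contributions cannot be told apart in any comparison of phases.

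The CSF1 receptor keeps cells of the macrophage lineage alive, and its signalling, together with transcription factors such as PU.1 and MAF, underlies the identity of these cells. Macrophages clear dying cells through receptors for exposed phosphatidylserine, take up sugars, lipids and proteins through scavenger receptors, and sense immunoglobulin and other ligands through receptors that signal by ITAM adaptors. Macrophages of the early embryo derive from the yolk sac and settle in many tissues, the aortic region among them, before haematopoietic stem cells contribute.

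The values are the authors' group values in FPKM (sequenced fragments scaled to transcript length and to library size), with a single value for each gene in each group. The spread between samples and the depth of the libraries are therefore unknown. The words rose and fell are kept for genes with a q-value under 0.05 in the authors' deposited table. The 3 samples of a group are not stated to come from separate litters, nor is it stated that the authors' test used them separately, so the spread behind the q-values may be technical. The sort used no macrophage marker. The sorted cells carried RNA of the genes behind the sort, with Pecam1 (CD31) at 30.2 to 111 FPKM and Kit (CD117) at 12.7 to 28.9 FPKM over the 4 groups. In bulk RNA of sorted cells, a change in how many cells of a type were present and a change in RNA per cell cannot be told apart.

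All 34 genes had their highest value in G1 cells at E11.5. At that point 33 of the 34 exceeded 1 FPKM, with Cd163, a haemoglobin scavenger receptor, the exception at 0.0203 FPKM. In the other groups, 28 (E10.5 G1), 25 (E10.5 S/G2/M) and 29 (E11.5 S/G2/M) exceeded 1 FPKM. The summed level of the genes was 655 (G1) and 458 FPKM (S/G2/M) at E10.5, and 3626 (G1) and 1537 FPKM (S/G2/M) at E11.5. The order of the 4 groups from high to low was E11.5 G1, E11.5 S/G2/M, E10.5 G1 and E10.5 S/G2/M for 26 of the 34 genes. Only Lyve1, Timd4 and Axl were lower in S/G2/M cells at E11.5 than in G1 cells at E10.5.

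**Figure D1:**
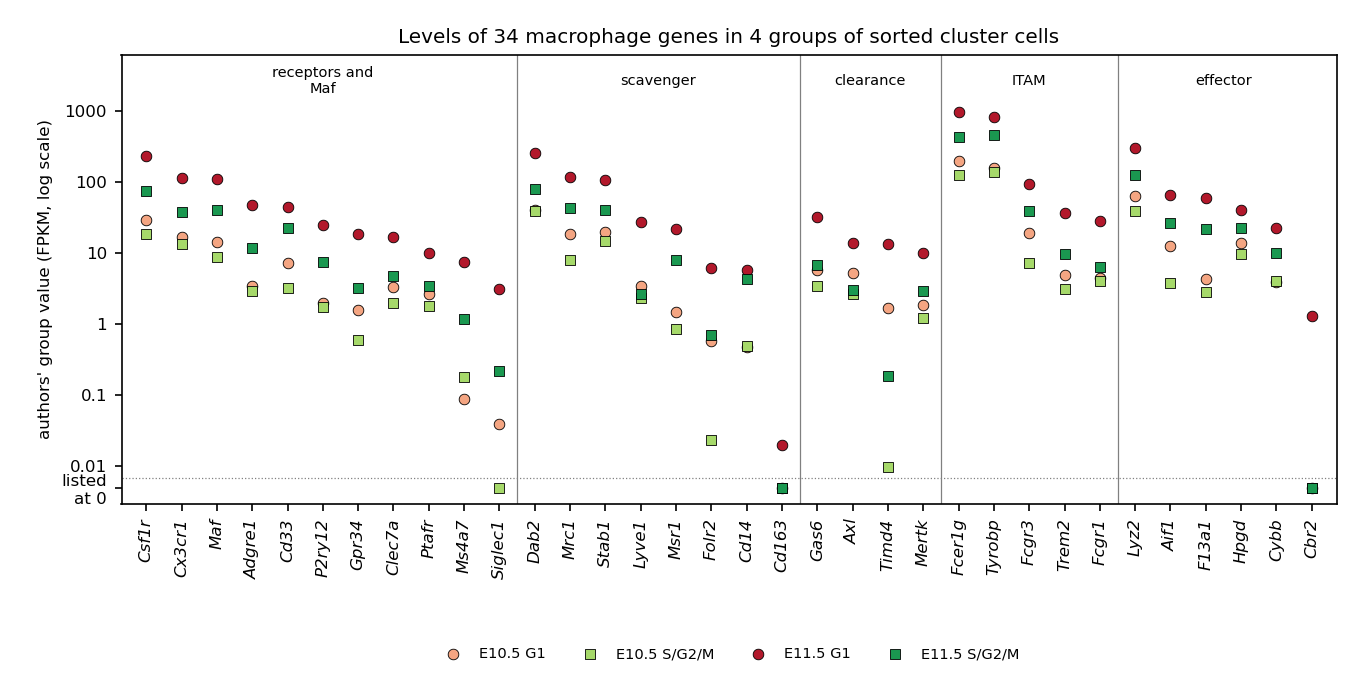
FPKM (log axis) of each of the 34 macrophage genes in the 4 groups, 1 point for each of the authors' group values, with genes ordered within their roles. The E11.5 G1 point is the highest for all 34 genes, and Fcer1g, Tyrobp and Lyz2 are the most abundant.

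The first set of genes holds the growth factor receptor, a transcription factor and surface receptors by which macrophages are recognised. Csf1r, on chromosome 18 (61105572 to 61131139, mm10, plus strand), stood at 29.4 FPKM (G1) and 18.7 FPKM (S/G2/M) at E10.5, and at 228 and 73.5 FPKM at E11.5. It fell 3.10-fold from G1 to S/G2/M at E11.5 (q = 0.0175 in the authors' deposited table). With age it rose 8.19-fold in G1 and 4.17-fold in S/G2/M. Both E11.5 values thus lay above both E10.5 values. On 15.1% of its exon bases Csf1r overlaps Hmgxb3 on the other strand, and the sources used here do not say whether reads kept their strand. Of 8 more of the 34 genes that share exon bases with a gene on the other strand, Folr2 (63.1%) and Maf (5.34%) share the most, and the rest share 0.353% to 2.87%. Maf, a leucine zipper transcription factor on chromosome 8 (115703253 to 115706894, minus strand), had 14.4 and 8.90 FPKM at E10.5 and 110.4 and 39.5 FPKM at E11.5, in G1 and S/G2/M respectively. It rose with age in both phases, 8.12-fold in G1 and 4.68-fold in S/G2/M, and its 2.79-fold lower value in S/G2/M at E11.5 did not pass (q = 0.140 in the authors' deposited table).

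Adgre1, which encodes the macrophage surface protein F4/80 and lies on chromosome 17 (57358686 to 57483529, plus strand), had 3.39 and 2.90 FPKM at E10.5 and 47.1 and 11.6 FPKM at E11.5. It rose 14.7-fold with age in G1 and 4.22-fold in S/G2/M, and at E11.5 it was 4.07-fold lower in S/G2/M (q = 0.0102 in the authors' deposited table). Cx3cr1, the fractalkine receptor of monocytes, macrophages and microglia on chromosome 9 (120048683 to 120068296, minus strand), had 16.6, 13.2, 112 and 37.2 FPKM in the same order of groups. It rose 7.16-fold in G1 and 2.97-fold in S/G2/M, and it fell 3.02-fold between the phases at E11.5. For both genes the phases were close at E10.5, where S/G2/M was lower by a factor of 1.17 for Adgre1 and 1.26 for Cx3cr1 and neither passed.

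Of the other receptors of this set, Cd33, a sialic-acid-binding inhibitory receptor, had 7.15 and 3.17 FPKM at E10.5 and 44.6 and 22.2 FPKM at E11.5. It rose 6.58-fold with age in G1 and 7.38-fold in S/G2/M. Clec7a, the beta-glucan receptor Dectin-1, had 3.28, 1.97, 16.8 and 4.73 FPKM and rose with age in G1 (5.43-fold). Its 2.53-fold higher value with age in S/G2/M did not pass.

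A further 5 genes of this set passed in no comparison. P2ry12, an ADP receptor known from microglia, went from 1.90 FPKM at E10.5 to 24.8 FPKM at E11.5 in G1, with q = 0.410 in the authors' deposited table. Gpr34, a lysophospholipid receptor, had 1.52 and 18.7 FPKM there, and Ptafr, the receptor of platelet-activating factor, 2.56 and 10.2 FPKM. The deposited locus of P2ry12 is 7.24 times and that of Gpr34 38.9 times as long as the reference gene. Other deposited loci are shorter than the gene, most of all those of Cx3cr1 (0.117 of its length), Maf (0.147) and Cd33 (0.283). Ms4a7, of the MS4A family of membrane proteins, and Siglec1, the sialic acid receptor CD169, were below 0.2 FPKM in both groups at E10.5 and reached 7.50 and 3.15 FPKM in G1 at E11.5.

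The second set holds scavenger receptors and an adaptor of endocytosis. Dab2, a clathrin adaptor on chromosome 15 (6299789 to 6440709, plus strand), was the most abundant of them, with 40.7 and 38.5 FPKM at E10.5 and 255 and 80.04 FPKM at E11.5. At E10.5 its phases differed by a factor of 1.06, and at E11.5 it fell 3.19-fold in S/G2/M (q = 0.0242 in the authors' deposited table). It rose with age 6.61-fold in G1 and 2.19-fold in S/G2/M. Mrc1, the mannose receptor CD206 on chromosome 2 (14229414 to 14332023, plus strand), had 18.6 and 7.91 FPKM at E10.5 and 115 and 42.3 FPKM at E11.5. It rose 6.56-fold in G1 and 5.64-fold in S/G2/M, and neither phase comparison passed, with p = 0.00345 at E10.5 and p = 0.00200 at E11.5 before adjustment in the authors' deposited tables.

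Lyve1, a hyaluronan receptor of lymphatic endothelium and of a class of tissue macrophages, lies on chromosome 7 (110850607 to 110862953, minus strand). It had 3.44 FPKM (G1) and 2.36 FPKM (S/G2/M) at E10.5, and 26.9 and 2.65 FPKM at E11.5. It rose 8.25-fold with age in G1 (q = 0.0132 in the authors' deposited table), while in S/G2/M its values at the 2 ages differed by a factor of 1.20 (q = 0.933 in the authors' deposited table). Whether the change with age differed between the phases was not tested, since no values of single samples were used. At E11.5 it fell 10.1-fold from G1 to S/G2/M (q = 0.0102 in the authors' deposited table), the largest fold among the genes that passed there.

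The other scavenger receptors passed in no comparison. Stab1, the receptor stabilin-1, had 19.6, 14.8, 105 and 40.4 FPKM in E10.5 G1, E10.5 S/G2/M, E11.5 G1 and E11.5 S/G2/M. Msr1, the class A scavenger receptor, had 1.46, 0.862, 21.5 and 7.92 FPKM in the same order, and its deposited locus is 12.5 times as long as the gene. Folr2, a folate receptor of tissue macrophages, had 0.585, 0.0234, 6.22 and 0.710 FPKM, and 63.1% of its exon bases overlap the antisense gene Gm10602. Cd14, a co-receptor of endotoxin, was 0.470 and 0.488 FPKM at E10.5 and 5.77 and 4.37 FPKM at E11.5, the smallest fold between the phases at E11.5 of any of the 32 genes above 0 in both groups (1.32). Cd163 was listed at 0 in 3 of the 4 groups and was tested by the authors in no comparison.

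The third set serves the recognition of dying cells. Gas6 encodes the ligand that bridges phosphatidylserine to the TAM receptor kinases, and Mertk and Axl are 2 of these kinases. Gas6, on chromosome 8 (13465374 to 13494535, minus strand), had 5.82 and 3.46 FPKM at E10.5 and 31.8 and 6.73 FPKM at E11.5. It fell 4.73-fold from G1 to S/G2/M at E11.5 (q = 0.0102 in the authors' deposited table), and its 5.78-fold higher value with age in G1 lay at q = 0.0504 in the authors' deposited table. Mertk, at 1.87, 1.23, 9.91 and 2.96 FPKM, rose 5.61-fold with age in G1. Axl, at 5.25, 2.67, 13.6 and 3.06 FPKM, was 4.44-fold lower in S/G2/M at E11.5 (q = 0.0546 in the authors' deposited table) and did not pass in any comparison. Timd4, the phosphatidylserine receptor TIM-4, was at 1.68 FPKM in G1 at E10.5 and 13.2 FPKM in G1 at E11.5, while its S/G2/M values were 0.00979 and 0.188 FPKM. Neither phase comparison passed for Timd4, with q = 0.943 at E10.5 and 0.749 at E11.5 in the authors' deposited tables. None of these 4 genes passed with age in S/G2/M, where 3 were tested and the authors' deposited table gives none of them a p under 0.05 before adjustment.

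The fourth set holds the ITAM adaptors and receptors that use them, and its adaptors were the most abundant of the 34 genes in every group. Fcer1g, the common gamma chain of Fc receptors on chromosome 1 (171229572 to 171234349, minus strand), had 194 and 123 FPKM at E10.5 and 947 and 424 FPKM at E11.5, and ranked 92 among all 24138 gene models in G1 at E11.5. Tyrobp, the adaptor DAP12 on chromosome 7 (30413788 to 30417579, plus strand), had 156 and 136 FPKM at E10.5 and 810.2 and 456 FPKM at E11.5. Both rose with age in both phases, Fcer1g 5.16-fold in G1 and 3.65-fold in S/G2/M, and Tyrobp 5.49-fold and 3.54-fold. Between the phases at E11.5 Tyrobp was 1.78-fold and Fcer1g 2.23-fold lower in S/G2/M, and neither passed. Trem2, a lipid receptor that signals through Tyrobp, had 4.93, 3.15, 36.8 and 9.59 FPKM and passed in no comparison. Fcgr1, the high-affinity receptor of immunoglobulin G, was close between the phases at E10.5 (4.39 and 4.00 FPKM) and had 27.9 and 6.44 FPKM at E11.5. It rose with age in G1 (6.69-fold), and its 1.71-fold higher value with age in S/G2/M did not pass. Fcgr3, a lower-affinity receptor of the same kind, had 19.1, 7.11, 92.8 and 39.3 FPKM and rose 5.13-fold in G1, with its 5.84-fold higher value in S/G2/M at q = 0.0578 in the authors' deposited table.

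The fifth set holds enzymes and cytosolic proteins. Lyz2, the lysozyme of myeloid cells, had 63.1 and 38.3 FPKM at E10.5 and 294 and 125 FPKM at E11.5 and rose with age 4.92-fold in G1 and 3.42-fold in S/G2/M. Its near-identical neighbour Lyz1, with which reads may be shared, had 4.90, 2.79, 20.7 and 11.9 FPKM and passed in no comparison. F13a1, the A chain of coagulation factor XIII on chromosome 13 (36867178 to 37050244, minus strand), had 4.28, 2.80, 59.6 and 22.0 FPKM. It rose 14.7-fold in G1 and 8.29-fold in S/G2/M, the largest fold with age in S/G2/M among the genes that passed there. Aif1, the calcium-binding protein IBA1, had 12.6, 3.83, 65.5 and 26.4 FPKM and rose 5.49-fold in G1. Its 7.24-fold higher value with age in S/G2/M did not pass (q = 0.109 in the authors' deposited table).

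Cybb, the catalytic subunit of the phagocyte NADPH oxidase, had 3.85, 4.10, 22.5 and 9.99 FPKM and rose 6.16-fold in G1. Hpgd, which degrades prostaglandins, had 13.7, 9.56, 40.7 and 22.6 FPKM and rose 3.15-fold in G1, the smallest rise with age among the genes that passed in G1. Cbr2, a carbonyl reductase, was listed at 0 in every group except E11.5 G1, where it had 1.28 FPKM, and it did not pass.

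Set against each other at E10.5, the phases gave no member that passed. The authors tested 28 of the 34 genes there, leaving out Cd163, Cd14, Folr2, Cbr2, Ms4a7 and Siglec1. Of all 12984 genes tested, 0.193% were called higher and 0.462% lower in S/G2/M, so that a count of 0 among 28 genes is near the background. Before adjustment, the authors' deposited table puts 2 of the 28 under p = 0.05, Mrc1 and Fcgr3, against 4.28% of all genes in the same, lower, direction. The value was lower in S/G2/M for 27 of the 28, compared with 52.9% of all tested genes, and Cybb was the exception. This direction was not particular to the macrophage genes. All 16 genes of an endothelial list were also lower there, while a progenitor list had 8 of 16 lower and 8 higher. The median log2 fold change was -0.65, and that of all tested genes was -0.04.

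At E11.5, 6 of the 33 tested genes fell in S/G2/M relative to G1 and none rose. They were Csf1r, Adgre1, Cx3cr1, Lyve1, Gas6 and Dab2. Of all 12414 genes tested, 0.564% were called lower and 0.137% higher. The value was lower in S/G2/M for all 33, compared with 54.0% of all tested genes, and the authors' deposited table puts 22 of the 33 under p = 0.05 before adjustment, against 4.95% of all genes in that direction. The median log2 fold change was -1.61 over the 32 genes above 0 in both groups, and that of all tested genes was -0.06. Of the endothelial list 14 of 16 genes were also lower, with a median of -0.30, while 14 of 16 progenitor genes were higher. By role, 3 of 11 identity genes, 2 of 7 scavenger genes, 1 of 4 clearance genes, 0 of 5 ITAM genes and 0 of 6 enzymes and cytosolic proteins fell, and all 5 ITAM genes and 4 of the 6 last were lower at an unadjusted p below the same limit. Another 7 genes were lower by a factor of 4 or more without passing, namely Timd4, Axl, Fcgr1, Folr2, Ms4a7, Gpr34 and Siglec1. A gene enters the authors' test where either group has enough reads, so low genes that were tested at E11.5 and not at E10.5 entered with their higher G1 values. The same holds for age: Cd14, Folr2, Cbr2, Ms4a7 and Siglec1 were at 0 to 0.562 FPKM in G1 at E10.5 and entered the age test in G1, and Cd14 and Ms4a7 that in S/G2/M, through their E11.5 values, so their direction was fixed by the filter and their share in the counts below is no result.

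**Figure D2:**
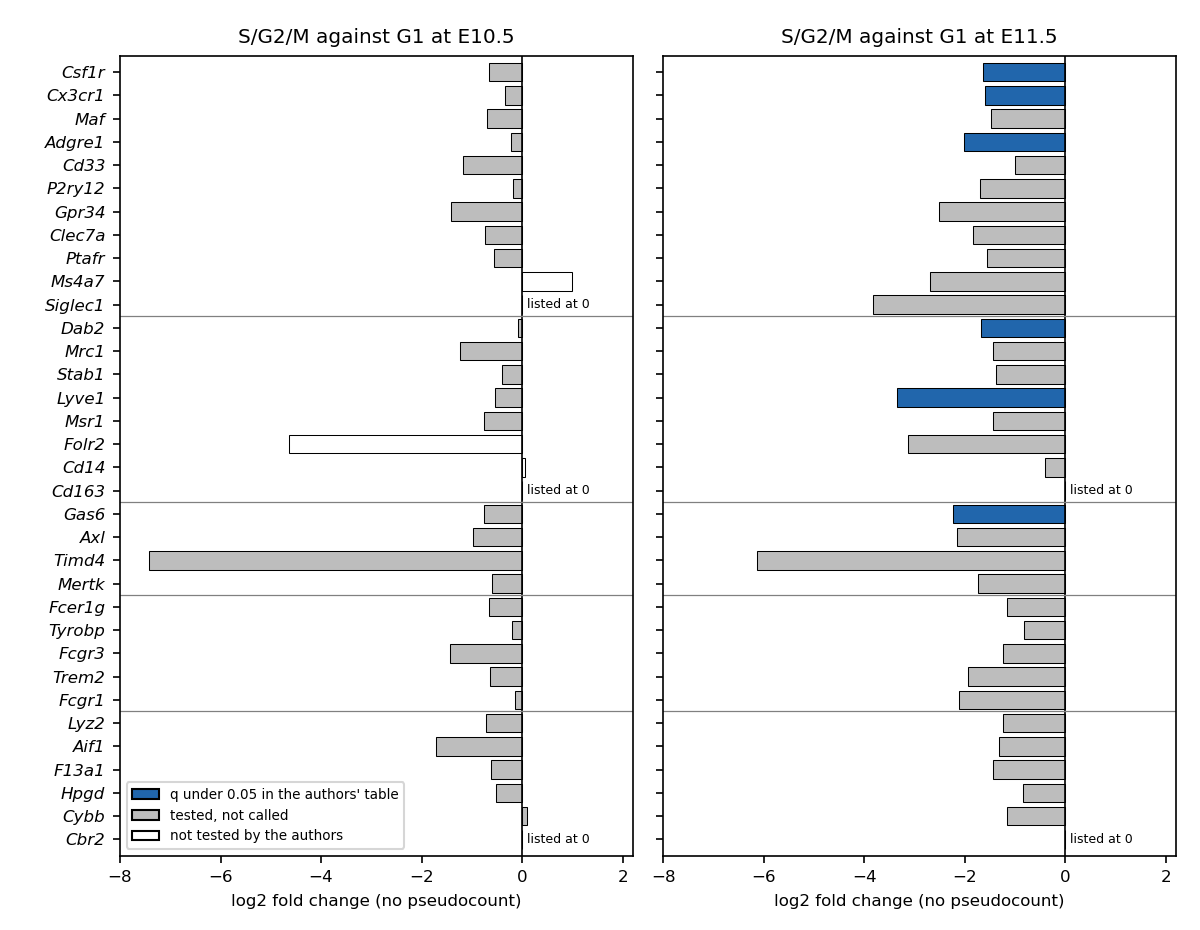
Log2 fold change of S/G2/M against G1 for each of the 34 macrophage genes, at E10.5 (left panel) and E11.5 (right panel), with blue bars for genes that passed, grey bars for genes tested that did not, white bars for genes the authors did not test, and no bar where a gene is listed at 0 in a group. At E11.5 all 32 bars point to lower values in S/G2/M, and the 6 genes that passed range from -1.59 (Cx3cr1) to -3.34 (Lyve1).

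With age, 19 of the 33 tested genes rose in G1 cells and none fell. Of all 12953 genes tested in G1, 3% were called higher and 1.45% lower. The value was higher at E11.5 for all 33, compared with 50.9% of all tested genes, and the authors' deposited table puts 25 of the 33 under p = 0.05 before adjustment, against 8.96% of all genes in that direction. The median log2 fold change was 2.73, and that of all tested genes was 0.02. All 16 genes of the endothelial list also had higher values, with a median of 0.84, while all 16 stromal and neural genes were lower. By role, 6 of 11 identity genes, 3 of 7 scavenger genes, 1 of 4 clearance genes, 4 of 5 ITAM genes and 5 of 6 enzymes and cytosolic proteins rose. The largest folds among those that passed were those of Adgre1 and F13a1, both 14.7. Another 11 genes were higher by a factor of 4 or more without passing, among them Trem2 (7.89-fold), Stab1 (5.64-fold) and Msr1 (15.6-fold).

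In S/G2/M cells, 11 of the 29 tested genes rose with age and none fell. Untested were Cd163, Timd4, Folr2, Cbr2 and Siglec1. Of all 12768 genes tested, 2.14% were called higher and 1.93% lower. The value was higher at E11.5 for all 29, compared with 52.1% of all tested genes, and the authors' deposited table puts 15 of the 29 under p = 0.05 before adjustment, against 7.79% of all genes in that direction. The median log2 fold change was 1.82, and that of all tested genes was 0.03. All 16 endothelial genes also had higher values, with a median of 0.998, while 13 of 16 stromal and neural genes were lower. The 11 were Csf1r, Adgre1, Cx3cr1, Mrc1, Maf, Tyrobp, Fcer1g, Lyz2, F13a1, Dab2 and Cd33, and all 11 had also risen in G1. The 8 genes that passed in G1 and not in S/G2/M were Lyve1, Mertk, Fcgr1, Fcgr3, Aif1, Hpgd, Clec7a and Cybb, and a difference between the phases in their change was not tested. Among the 31 genes above 0 in all groups, the fold with age was larger in G1 for 26, and larger in S/G2/M for Timd4, Fcgr3, Aif1, Folr2 and Cd33. The comparisons by phase and by age share groups, so these counts are not independent of each other.

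**Figure D3:**
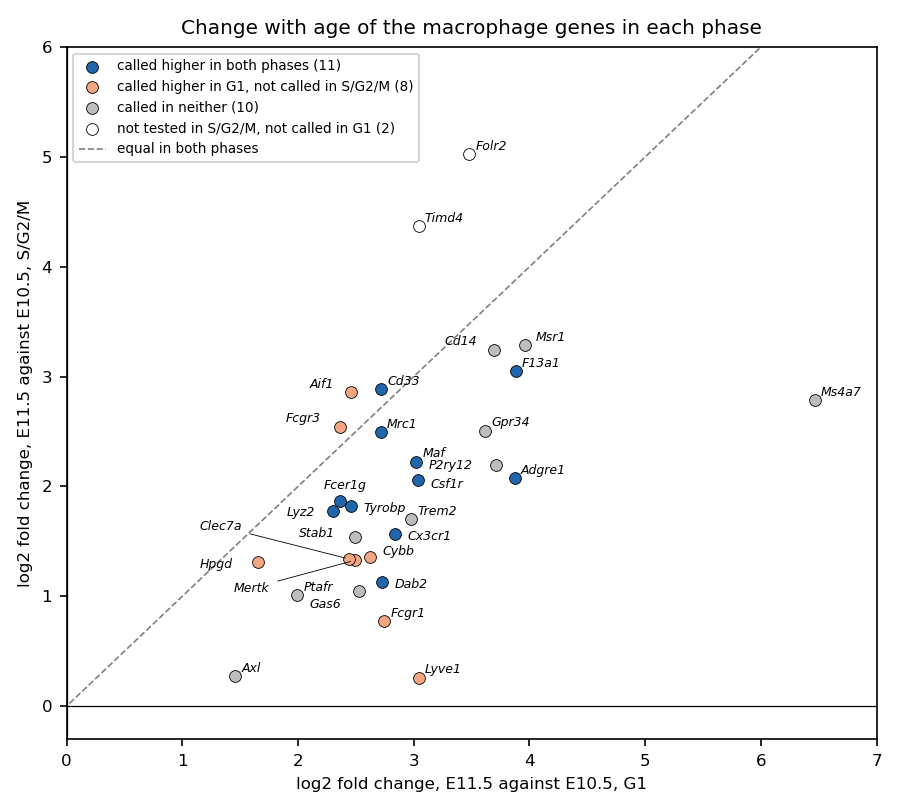
Log2 fold change from E10.5 to E11.5 in G1 cells (horizontal) and in S/G2/M cells (vertical) for the 31 macrophage genes above 0 in all groups, coloured by the comparison in which they passed. Of the 31 points 26 lie below the dashed line of equal change, with Lyve1 furthest below it among the genes that passed in G1, at 3.04 and 0.26.

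Since 11 of the genes rose with age in both phases, the sequence before the transcription start is shown for 5 of them, the 4 most abundant with a single start in the table and F13a1, which had the largest fold of the 5 with age in G1. The sequences are the 250 bases before the start in the RefSeq promoters of GRCm38.p6, 5′ to 3′ on the gene's strand. Capitals mark the letters of the PU box core (GAGGAA, or TTCCTC on the other strand), which the myeloid factor PU.1 is known to bind, and of an ETS site (AGGAAGT, or ACTTCCT), whose letters can overlap those of the core.
Fcer1g, chr1:171234350-171234599 (- strand): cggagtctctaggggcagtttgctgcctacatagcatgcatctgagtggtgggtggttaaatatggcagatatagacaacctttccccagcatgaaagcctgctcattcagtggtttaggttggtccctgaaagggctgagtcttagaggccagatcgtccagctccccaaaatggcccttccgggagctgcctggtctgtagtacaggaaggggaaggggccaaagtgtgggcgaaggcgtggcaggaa
Lyz2, chr10:117282273-117282522 (- strand): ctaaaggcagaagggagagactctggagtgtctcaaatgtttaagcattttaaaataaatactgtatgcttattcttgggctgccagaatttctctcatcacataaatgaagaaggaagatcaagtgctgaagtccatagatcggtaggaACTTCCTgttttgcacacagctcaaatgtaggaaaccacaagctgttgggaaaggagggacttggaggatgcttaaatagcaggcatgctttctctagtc
Mrc1, chr2:14229164-14229413 (+ strand): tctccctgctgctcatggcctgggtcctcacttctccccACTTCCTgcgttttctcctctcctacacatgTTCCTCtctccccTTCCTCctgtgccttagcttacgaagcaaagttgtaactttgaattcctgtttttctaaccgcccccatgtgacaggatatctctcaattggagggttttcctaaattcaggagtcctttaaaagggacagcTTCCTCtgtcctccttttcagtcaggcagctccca
Cx3cr1, chr9:120068297-120068546 (- strand): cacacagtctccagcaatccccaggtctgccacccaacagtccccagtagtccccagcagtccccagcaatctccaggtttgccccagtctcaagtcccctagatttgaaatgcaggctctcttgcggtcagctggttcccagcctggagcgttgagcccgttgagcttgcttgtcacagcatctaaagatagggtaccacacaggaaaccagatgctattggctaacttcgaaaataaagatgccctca
F13a1, chr13:37050245-37050494 (- strand): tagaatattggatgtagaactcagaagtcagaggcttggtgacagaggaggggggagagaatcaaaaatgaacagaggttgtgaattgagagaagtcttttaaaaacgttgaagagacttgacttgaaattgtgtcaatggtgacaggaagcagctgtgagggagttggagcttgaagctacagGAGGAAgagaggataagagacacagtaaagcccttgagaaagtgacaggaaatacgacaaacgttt

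The core begins 66 bases before the start in F13a1 and 180, 167 and 35 bases before it in Mrc1. The ETS site begins 211 bases before the start in Mrc1 and 100 bases before it in Lyz2, and neither motif occurs in the windows of Fcer1g and Cx3cr1. Promoters were listed for 25 of the 34 genes, with 31 starts between them, some only a few bases apart. The PU box core was present in 17 of these 31 windows (54.8%) and in 23.3% of all 32851 windows of this length. The ETS site was present in 6 of 31 (19.4%) and in 7.69% of all windows. The RUNX core (TGTGGT, both strands) was present in 16.1% and 14% of them, the MAF site (TGCTGAC, both strands) in 9.68% and 3.81%, and TATAAA (both strands) in 0 of 31 and 12.4%. These are counts of letters, taken after several motifs had been looked at and without a test, and a match is not shown to be a bound site.

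Of the 16 genes for CSF1R ligands and myeloid transcription factors, few passed. Csf1, the ligand of the receptor that Csf1r encodes, had 3.70, 0.938, 2.51 and 2.65 FPKM in E10.5 G1, E10.5 S/G2/M, E11.5 G1 and E11.5 S/G2/M and did not pass. Il34, which encodes its other ligand, was listed at 0 in all 4 groups. Spi1, which encodes PU.1, rose 4.43-fold with age in G1, from 24.4 to 108 FPKM, and in S/G2/M went from 29.3 to 82.2 FPKM (q = 0.0536 in the authors' deposited table). Irf5, an interferon regulatory factor, was the other gene of the list that rose in G1, from 4.58 to 23.3 FPKM. Between the phases none of the list passed by the authors' q, with 1 of 11 at E10.5 and 4 of 14 at E11.5 lower at an unadjusted p below the same limit, and Spi1 was 1.34-fold lower in S/G2/M at E11.5.

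Of 20 kinases, adaptors, phosphatases and further receptors of the ITAM pathway, 11 of 19 tested rose with age in G1 and 11 of 20 in S/G2/M, and none fell, with medians of 2.40 and 1.98 on the log2 scale. The count in G1 includes Fcgr2b, listed at 0 at E10.5 and at 2.51 FPKM at E11.5. It entered through its E11.5 value, so its direction was fixed by the filter. Fyb, an adaptor of immune receptors, rose from 4.79 to 45.6 FPKM in G1 and from 3.26 to 17.9 FPKM in S/G2/M. Laptm5, a lysosomal protein of blood cells, rose from 70.9 to 343 FPKM in S/G2/M, and Sirpa, which encodes an inhibitory receptor of phagocytosis, from 13.3 to 99.04 FPKM in G1. Between the phases at E11.5 none of these 20 passed by the authors' q, with 6 lower and 1 higher at an unadjusted p below the same limit, and the median was -0.69, compared with -1.24 for the 5 ITAM genes among the 34. Plcg2, a phospholipase of this pathway, had the higher value in S/G2/M at E11.5 (20.1 FPKM in G1, 36.9 FPKM in S/G2/M), without passing.

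Among 18 further genes of the clearance of dying cells, Lrp1, an engulfment receptor, and Abca1, a lipid exporter, fell between the phases at E11.5. Lrp1 fell 3.17-fold, from 32.05 to 10.1 FPKM, and Abca1 fell 2.76-fold, from 44.6 to 16.2 FPKM. With age 5 of 17 rose in G1 and 3 of 17 in S/G2/M. Abca1 rose in both, and Pros1, the other ligand of the TAM kinases, rose in G1 from 8.69 to 28.5 FPKM. Tyro3, the third TAM kinase, passed in no comparison and was highest in G1 at E10.5, at 3.63 FPKM, while Mertk and Axl were highest in G1 at E11.5. Of the other oxidase subunits, Ncf1, Cyba and Rac2 rose with age in G1 as Cybb did, and Ncf1 and Rac2 rose in S/G2/M. None of these 3 passed between the phases by the authors' q, and Cyba was lower in S/G2/M at E11.5 at an unadjusted p of 0.0324 in the authors' deposited table.

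Of 24 further macrophage genes outside the 34, 18 of 23 tested rose with age in G1 and 5 of 22 in S/G2/M. The count in G1 includes Clec4n, listed at 0 at E10.5 and at 9.07 FPKM at E11.5. It entered through its E11.5 value, so its direction was fixed by the filter. Csf2ra, a receptor chain for GM-CSF, rose in G1 from 1.38 to 30.6 FPKM, and Itgam (CD11b) from 2.92 to 38.7 FPKM. Ctss, a lysosomal protease, rose in S/G2/M from 6.70 to 85.5 FPKM. At E11.5, 3 of 23 fell in S/G2/M, which were Cd68, a lysosomal glycoprotein (186 to 39.9 FPKM), Unc93b1, a chaperone of endosomal Toll-like receptors (66.4 to 12.2 FPKM), and Fcrls (89.7 to 25.2 FPKM). The median log2 fold changes of this list were -0.52 and -1.27 between the phases and 2.77 and 2.06 with age, beside -0.65, -1.61, 2.73 and 1.82 for the 34.

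**Figure D4:**
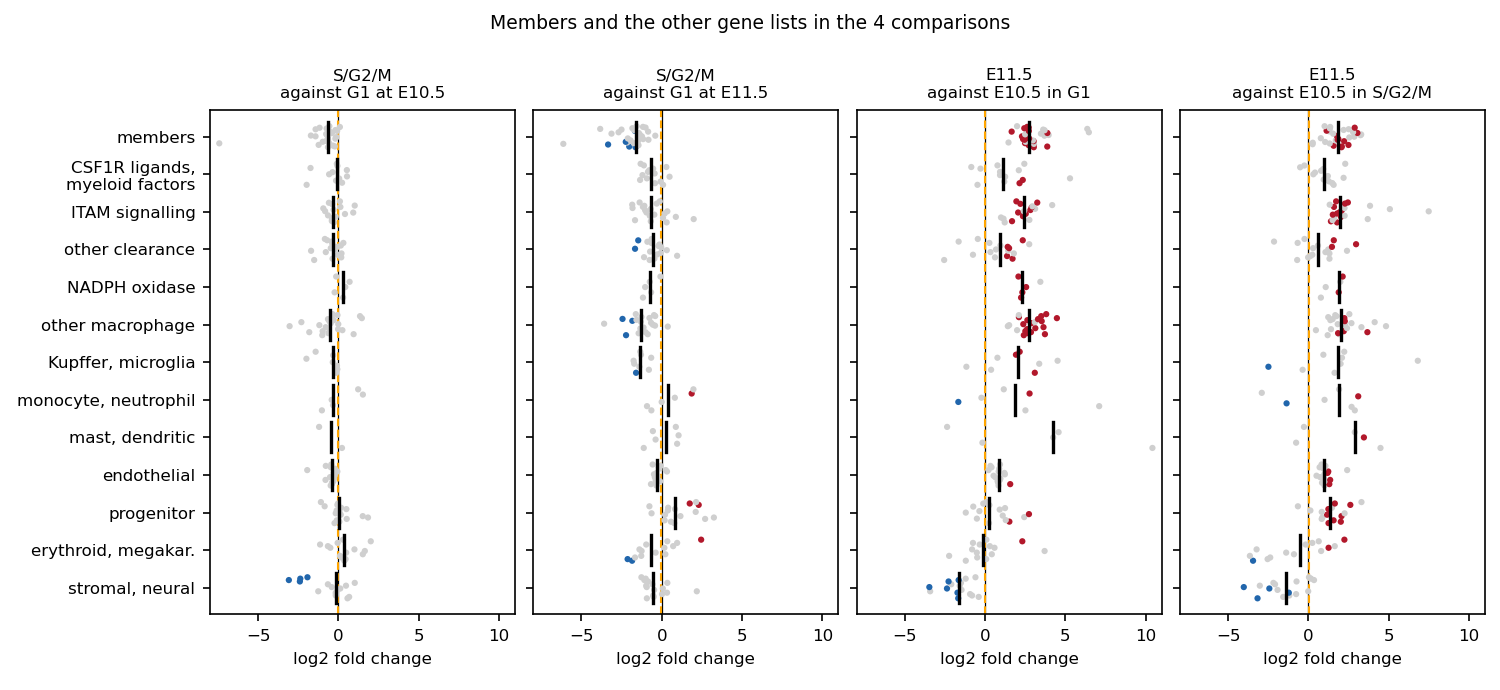
Log2 fold changes of the 34 macrophage genes and of 12 other gene lists in the 4 comparisons, 1 point per tested gene above 0 in both groups, with red for genes called higher, blue for genes called lower and grey for the rest. Black bars mark each list's median and the dashed line the median of all tested genes. The median of the 34 is -1.61 at E11.5 between the phases, while that of the progenitor list is 0.80.

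Other cell types moved alongside these genes, and their part in the changes was not tested. Of 16 endothelial genes, none passed between the phases by the authors' q, with 2 at E10.5 and 0 at E11.5 lower at an unadjusted p below the same limit, and 1 (G1) and 4 (S/G2/M) rose with age, with summed levels of 827 and 641 FPKM at E10.5 and 1438 and 1154 FPKM at E11.5. Of 16 progenitor genes, Hlf and Adgrg1 were called higher in S/G2/M at E11.5, where Csf1r and Adgre1 fell, and 2 rose with age in G1 and 8 in S/G2/M. Ptprc, which encodes the blood cell surface protein CD45, rose with age in G1 from 4.57 to 30.4 FPKM, and in S/G2/M had 4.17 and 19.9 FPKM without passing. In 14 erythroid and megakaryocyte genes, summed levels were 15310, 19423, 12129 and 3535 FPKM in the order of groups used above, and Hba-x and Hbb-bh1, embryonic globins, fell between the phases at E11.5. In 16 stromal and neural genes, sums were 460.1, 241, 136 and 88.2 FPKM, with 6 fallen with age in G1 and 4 in S/G2/M. At E10.5, where 27 of 28 macrophage genes had lower values in S/G2/M and none passed, 4 of the 16 fell in S/G2/M, which were the neuronal genes Dcx (8.51-fold), Tubb3 (5.29-fold), Stmn2 (5.19-fold) and Elavl3 (3.81-fold).

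Of the markers of monocytes and granulocytes, Mpo, the myeloperoxidase of granulocyte and monocyte precursors, had 14.5, 41.6, 93.7 and 341 FPKM, and rose 3.64-fold in S/G2/M relative to G1 at E11.5 and with age in both phases. S100a8, of neutrophils, was listed at 0 in all groups except E11.5 G1, at 13.1 FPKM. It was called lower in S/G2/M at E11.5 and higher with age in G1. It entered both tests through its E11.5 G1 value, so these directions were fixed by the filter. Vcan, a proteoglycan that mesenchymal cells also make, was called lower with age in both phases, 3.17-fold in G1 and 2.57-fold in S/G2/M. These are the calls of the list: of 9 tested at E11.5 between the phases, 6 had lower and 3 higher values in S/G2/M, and none of 7 passed at E10.5, with 1 higher at an unadjusted p below the same limit. The summed level of the 16 genes of this list was 88.3, 110.5, 167 and 446 FPKM, with Ly6c2 at 0 in 2 groups. Of 12 mast and dendritic cell genes none passed between the phases, by the authors' q or by unadjusted p, while Gzmb, a granule protease, was called higher with age in both phases (listed at 0 at E10.5, and at E11.5 at 3.07 FPKM in G1, 6.07 FPKM in S/G2/M). Flt3, a cytokine receptor, rose with age in S/G2/M from 0.557 to 6.12 FPKM. Neither Gzmb nor Flt3 was tested between the phases at E10.5. Both entered these age tests through their E11.5 values, so their direction was fixed by the filter. The summed levels of this list were 11.1, 8.32, 37.0 and 31.0 FPKM. Its highest gene in both E11.5 groups was Cpa3, a mast cell gene. Cpa3 had 0.0157, 0.433, 20.3 and 9.34 FPKM and passed in no comparison. Ms4a2, also of mast cells, did not exceed 0.0594 FPKM in any group.

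Several of the 34 genes are also made by embryonic endothelial or mesenchymal cells. Counting Lyve1, Stab1, Mrc1, Maf, Axl, Gas6, Dab2 and Hpgd as such, the medians of the other 26 genes were -0.65 and -1.61 between the phases and 2.91 and 2.06 with age. For these 8 the medians were -0.62, -1.58, 2.62 and 1.22. By this choice of genes, Csf1r, Adgre1, Cx3cr1, Tyrobp and Lyz2 are among the other 26. The part of endothelial, mesenchymal or other cells in the changes was not tested.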

How the data were processed

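RNA was sequenced as total RNA from sorted cells in 4 groups of 3 samples. The submitters' processing notes list TopHat, Cuffdiff, CASAVA 1.4 and mm10, while the labels' extract protocol names bowtie 0.12.2 and mm8. Each of the 34 loci overlapped its GRCm38 namesake, and coordinates are printed as mm10, counted from 1. The authors deposited 6 gene tables with 1 FPKM value for each of 2 groups and, per the file headers, the p-value and q-value of their test. The tables write G2 for the cells sorted as S/G2/M. No column holds a single sample, so no SD, count test or test between samples was run, and the depth is unknown. The q-values deposited by the authors match p-values adjusted by Benjamini and Hochberg's method over all tested genes, and the smallest p is 5e-05. Levels over all 4 groups and phase folds come from the phase tables, and age folds with their before and after levels from the age tables. For the same group and gene the phase tables gave 0.949 to 1.05 times the value of the age tables. Fold changes were ratios of FPKM without a pseudocount, with none given for a gene listed at 0. Exon overlaps were taken from the reference annotation of GRCm38. Every one of the 34 genes is accounted for. Of each other list and comparison, at most 4 genes that passed (largest fold first) or 2 of the highest value were named, plus fixed checks such as Csf1, Il34, Kit and Ptprc. Plcg2 at E11.5, Tyro3, Pros1, Lyz1, Gzmb, Ly6c2, Fcgr2b, Clec4n and Ms4a2 were added with their values known. Some genes of the other lists are not reported here. The genes and lists were chosen with earlier results of these data known. The counting was tested on simulated data, with pandas 2.3.3 and numpy 2.4.6 under Python 3.11.15, and figures were drawn with matplotlib 3.10.9.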

Additional observations from a re-analysis of the deposited data

How the results depend on the processing

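No paired analysis was possible because the deposited columns hold 1 value per group and carry no replicate, and for the same reason no sample could be left out in turn. At a q-value threshold of 0.01 in the authors' deposited tables, 0 of the macrophage genes passed between the phases at E11.5, where 0.0102 is the smallest q, and 12 in place of 19 rose with age in G1. With a pseudocount of 1 FPKM the median log2 fold changes of the genes were -0.50 and -1.46 between the phases at E10.5 and E11.5 and 2.45 and 1.501 with age in G1 and S/G2/M, all of the same sign. Without the 8 genes shared with endothelial or mesenchymal cells they were 2.91 and 2.06 with age. The other 52 summary values (lenient q, fold and level minimums among them) kept their direction and stayed within the stated tolerance, a factor of 1.5 for counts and 0.1 for log2 medians. In the authors' tables of the phases in the other order, all 61 results for single genes kept their direction and their side of the threshold. The interaction of age and phase was not fitted, since it needs values per sample.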

Other observations

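Genes that mark the specialised macrophages of single organs were largely at or near 0. Clec4f and Vsig4, receptors of liver macrophages, were listed at 0 in all 4 groups, and Cd5l and Marco did not exceed 0.0654 and 0.246 FPKM. Among genes known from microglia, Olfml3, which encodes a secreted protein, rose with age in G1, from 6.498 to 24.7 FPKM. Slc40a1, the iron exporter ferroportin, rose with age in G1 from 3.28 to 28.04 FPKM and at E11.5 it fell from 27.7 FPKM (G1) to 9.15 FPKM (S/G2/M). Tmem119, which osteoblasts and other mesenchymal cells also make, passed in no comparison, at 22.7, 21.7, 27.8 and 15.9 FPKM in E10.5 G1, E10.5 S/G2/M, E11.5 G1 and E11.5 S/G2/M. Sall1, a transcription factor of microglia and of kidney mesenchyme, fell with age in S/G2/M, from 13.4 to 2.38 FPKM.

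The order of the 34 macrophage genes by level was alike in the 4 groups, with Spearman's rho between 0.917 and 0.970 over the 34 genes of each pair of groups. This is a description across genes of 1 set of libraries, and gene length and mapping are shared by every pair.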
